A study of Saccharomyces cerevisiae with 10 samples.

Results

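The nuclear genes of the mitochondrial respiratory chain and of the ATP synthase were followed in 5 strains of budding yeast, Saccharomyces cerevisiae, each mutated in a gene of the type 2C protein phosphatase family. The members were a list of 43 open reading frames out of 6212 in the value table, chosen by name: 9 genes of complex III, 9 of complex IV, 2 of cytochrome c, 4 of complex II, 13 of the ATP synthase, 3 of its regulators and 3 of NADH dehydrogenases. The rule uses names and no measured value, though the list was drawn up with earlier results of these data known. Of the 43 genes, 39 had a value on at least 1 array and 26 had one on all 10 arrays. ATP18 and STF1 had no row and were not analysed here, and COX9 and ATP3 had rows without a value.

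Electrons from NADH enter the yeast chain through single-chain dehydrogenases, since this species lacks the multi-subunit complex I, and electrons from succinate enter through complex II. Complex III passes them to cytochrome c and complex IV passes them to oxygen, and the ATP synthase uses the proton gradient that complexes III and IV build. In yeast growing on glucose most ATP comes from fermentation, and many genes of the chain are held low by glucose repression and driven by the Hap transcription factors when repression is lifted.

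The study compared wild type (wt) with 5 mutant strains named ptc1, ptc2, ptc3, ptc4 and ptc5 after genes for type 2C serine/threonine protein phosphatases. The labels give no strain background, no allele and no number of clones. All 6 strains were in log phase in YPD, a rich glucose medium, at 28 °C and an absorbance between 0.6 and 0.8. RNA of each mutant was hybridised together with wt RNA on 2 arrays of opposite dye labelling, the mutant being in Cy5 on array 1 and in Cy3 on array 2. The design text lists 6 RNA samples, so the SD beside a mean covers 2 arrays taken as technical repeats of 1 extract, and a mutant's difference from wt carries no test. Values below are the mutant's level relative to wt on a scale taken to be log2, after centring each array on its median. The log base is not given in the sources used here, and all folds would be too small if it were the natural logarithm.

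The number of arrays limits the precision, and between 4195 and 4802 frames had a value on an array. The deposited array medians lay between −0.029 and 0.035 on 9 arrays and at 0.23 on array 2 of ptc2, which is why arrays were centred. PTC1, PTC3 and PTC5 were below −1.8 on both arrays of their own mutant and between −0.47 and 0.48 elsewhere. PTC2 was at −8.09 on the 1 ptc2 array that measured it, and PTC4 had no value in ptc4, so that label could not be checked.

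The first comparison asked how each mutant differed from wt. In ptc2, ptc3, ptc4 and ptc5 nearly all measured members were below wt by a small amount, and in ptc1 they lay near it. The median over members was −0.39 in ptc2 (30 genes measured on both arrays), −0.35 in ptc3 (35), −0.42 in ptc4 (27) and −0.47 in ptc5 (29), differences of between 1.27-fold and 1.39-fold. In ptc1 the median was 0.091 (35 genes). The medians over all frames lay between −0.0095 and 0.006 in the 5 mutants.

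On both arrays at once, 27 of 30 members of ptc2 were below 0, against 30.4% of all frames. The counts were 32 of 35 for ptc3 (background 26.2%), 25 of 27 for ptc4 (23.8%) and 26 of 29 for ptc5 (25.8%). In ptc1 only 5 of 35 were below 0 on both arrays, against 30.2% of all frames, and 16 were above 0 on both, against 29.7%. The 5 comparisons share the wt RNA, so they are not independent of each other.

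A size rule counted a gene as lower where its mean was at most −0.5 (1.41-fold) and both arrays were at most −0.25. It took 6 of 30 members in ptc2 with a background of 3.08% of all frames, 5 of 35 in ptc3 with 0.936%, 11 of 27 in ptc4 with 1.69%, 11 of 29 in ptc5 with 3.6% and 0 of 35 in ptc1 with 0.282%. No member was higher by the mirrored rule, which took 2.62% of all frames in ptc1 and 3.5%, 0.594%, 1.47% and 1.46% in ptc2 to ptc5. With the values as deposited the ptc2 count was 2, and no member met a larger rule that asked for a mean of at least 1 in size.

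**Figure D1:**
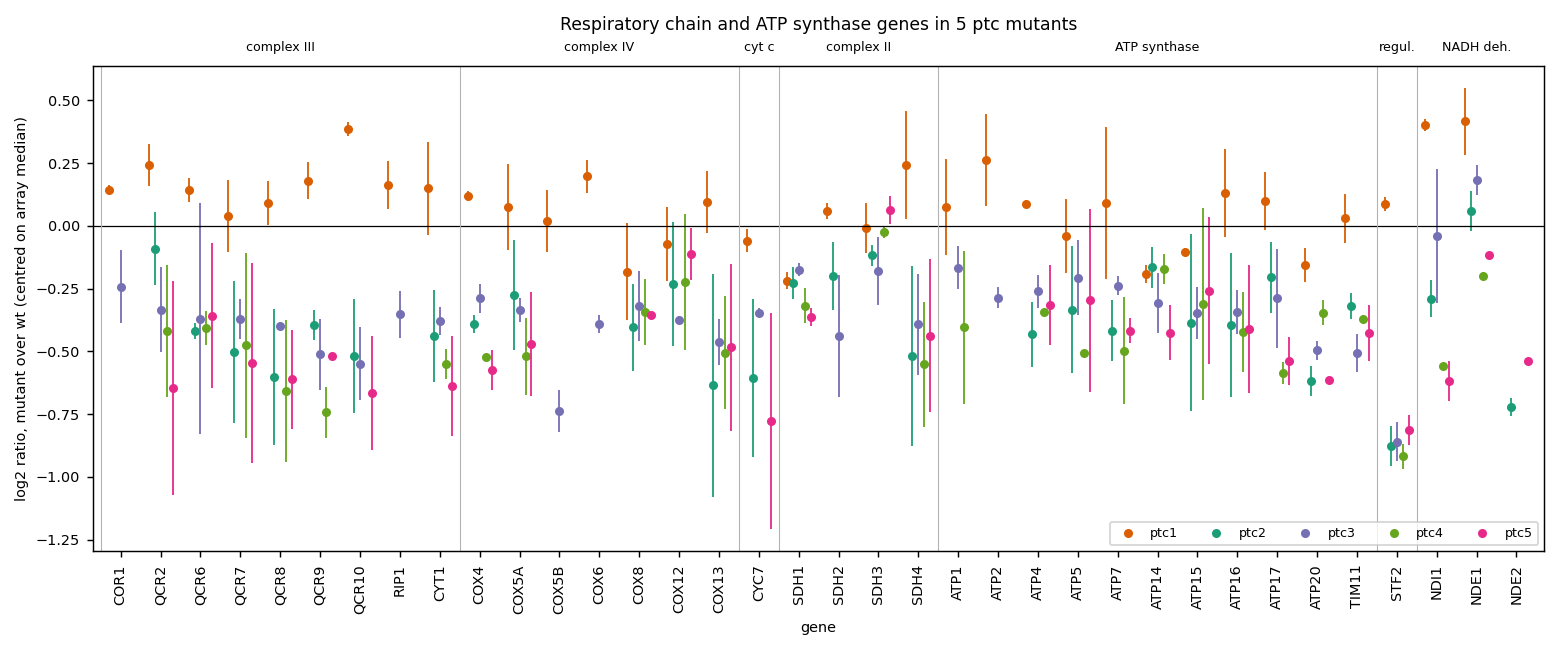
Log2 ratio of mutant over wt, centred on each array's median, for the 36 genes measured on both arrays of at least 1 mutant, ordered by complex. Points are means of 2 arrays and bars span the 2 arrays. The ptc1 points lie near 0 while most points of ptc2 to ptc5 lie below it, STF2 lowest among the means of those mutants at −0.81 to −0.92.

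Complex III, the cytochrome bc1 complex, had medians of −0.44, −0.37, −0.51 and −0.61 in ptc2 to ptc5, and of 0.15 in ptc1. In ptc1, 7 of its 9 genes were above 0 on both arrays and none was below 0 on both. QCR8 (YJL166W), a small subunit, was at 0.18 and 0.0020 on arrays 1 and 2 of ptc1, at −0.33 and −0.87 in ptc2, at −0.38 and −0.415 in ptc3, at −0.37 and −0.94 in ptc4, and at −0.41 and −0.81 in ptc5. Its mean over ptc2 to ptc5, −0.57, was the lowest of the 6 complex III genes measured on all arrays, and the ptc1 arrays did not overlap the others. QCR2, a core subunit, had the highest such mean of these genes, −0.37.

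QCR2 was at 0.33 and 0.16 in ptc1, at 0.055 and −0.24 in ptc2, at −0.16 and −0.50 in ptc3, at −0.15 and −0.68 in ptc4 and at −0.22 and −1.07 in ptc5. Its 2 arrays were far apart in ptc5, with a mean of −0.65 ± 0.60 (SD, n = 2 arrays). QCR9 (YGR183C), another small subunit, was at 0.25 and 0.11 in ptc1, −0.45 and −0.34 in ptc2, −0.37 and −0.65 in ptc3, −0.64 and −0.84 in ptc4, and −0.52 and −0.52 in ptc5. These 2 dye orientations gave nearly the same value in ptc5, and every array outside ptc1 was below every ptc1 array.

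CYT1 (YOR065W), cytochrome c1, was at 0.33 and −0.035 in ptc1, −0.26 and −0.62 in ptc2, −0.32 and −0.43 in ptc3, −0.49 and −0.61 in ptc4, and −0.44 and −0.84 in ptc5. QCR6, the acidic hinge subunit, was at 0.095 and 0.19 in ptc1, −0.45 and −0.39 in ptc2, −0.83 and 0.090 in ptc3, −0.47 and −0.34 in ptc4, and −0.65 and −0.069 in ptc5. In ptc3 the 2 arrays of QCR6 had opposite signs. The ptc1 arrays of QCR7 lay between −0.10 and 0.18 and the other 8 between −0.94 and −0.11. QCR10 was measured on 9 arrays, at 0.36 and 0.41 in ptc1 and between −0.89 and −0.29 on the other 7. RIP1, the Rieske iron-sulphur protein, and COR1, a core subunit, had values on 6 and 7 arrays, above 0 on both ptc1 arrays and below 0 on the rest.

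Complex IV, cytochrome c oxidase, had medians of −0.39, −0.37, −0.51 and −0.47 in ptc2 to ptc5 and 0.076 in ptc1. COX13 (YGL191W), a peripheral subunit, had the lowest mean over ptc2 to ptc5 of its 5 genes on all arrays, −0.52. It was at 0.22 and −0.029 in ptc1, −0.19 and −1.08 in ptc2, −0.37 and −0.56 in ptc3, −0.28 and −0.73 in ptc4, and −0.15 and −0.815 in ptc5. COX12 had the highest, −0.23, and was at 0.075 and −0.22 in ptc1, 0.016 and −0.48 in ptc2, −0.39 and −0.36 in ptc3, 0.046 and −0.49 in ptc4, and −0.0070 and −0.21 in ptc5. For COX12 the ptc1 arrays overlapped those of the other mutants.

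COX5A and COX5B encode interchangeable forms of subunit V, the first used in air and the second in low oxygen. COX5A was at −0.095 and 0.25 in ptc1, −0.49 and −0.055 in ptc2, −0.29 and −0.38 in ptc3, −0.67 and −0.37 in ptc4, and −0.68 and −0.26 in ptc5. COX5B was at −0.105 and 0.14 in ptc1, −0.82 and −0.65 in ptc3, −0.47 on array 1 of ptc4 and −0.32 on array 2 of ptc5, with no value in ptc2. Both forms were below wt on every array outside ptc1 that measured them. COX4 and COX6 were above 0 on both ptc1 arrays and at or below −0.23 elsewhere. COX8 ran from −0.38 to 0.010 in ptc1 and from −0.58 to −0.18 in the others, with overlap, and COX7 had 4 values, all outside ptc1, between −0.68 and −0.15.

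Cytochrome c has 2 genes, CYC1 for the form that prevails in air and CYC7 for the form favoured in low oxygen. CYC1 had only 2 values, −0.30 on array 1 of ptc3 and −0.36 on array 2 of ptc5. CYC7 was at −0.012 and −0.105 in ptc1, −0.92 and −0.29 in ptc2, −0.36 and −0.33 in ptc3, −0.22 on array 1 of ptc4, and −1.21 and −0.35 in ptc5. All CYC7 values were below 0, and those outside ptc1 were below both ptc1 values. How far the probes separate such paralogues is not given in the sources used here.

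Complex II, succinate dehydrogenase, differed among its subunits. Its median was 0.025 in ptc1 and ran from −0.36 to −0.21 in ptc2 to ptc5. These medians of 3 or 4 genes were unsteady: on array 1 alone they were −0.0085 in ptc1, −0.12 in ptc2 and −0.13 in ptc5, on array 2 alone −0.17 in ptc3, and with the values as deposited −0.086 in ptc2. SDH4 (YDR178W), a membrane anchor subunit, was at 0.46 and 0.029 in ptc1, −0.16 and −0.88 in ptc2, −0.19 and −0.595 in ptc3, −0.30 and −0.80 in ptc4, and −0.13 and −0.74 in ptc5. SDH3, the other anchor subunit, was at −0.11 and 0.090 in ptc1, −0.075 and −0.16 in ptc2, −0.32 and −0.046 in ptc3, −0.047 and −0.0030 in ptc4, and 0.0070 and 0.12 in ptc5. SDH4 thus lay below wt in ptc2 to ptc5 while SDH3 stayed within 0.2 of it in the mean of each mutant. SDH1, the flavoprotein, was below 0 on all 10 arrays, with means of −0.22 ± 0.048 in ptc1 and between −0.36 and −0.17 in the others. SDH2, the iron-sulphur subunit, was at 0.092 and 0.028 in ptc1 and between −0.68 and −0.065 on 6 other arrays.

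The ATP synthase had medians of −0.39, −0.29, −0.39 and −0.42 in ptc2 to ptc5 and of 0.074 in ptc1, although in ptc1 the median was 0.080 on array 1 and −0.088 on array 2. ATP20 (YPR020W), subunit g at the dimer interface, had the lowest mean over ptc2 to ptc5 of the 9 genes on all arrays, −0.52. It was at −0.22 and −0.088 in ptc1, −0.56 and −0.68 in ptc2, −0.46 and −0.54 in ptc3, −0.30 and −0.40 in ptc4, and −0.605 and −0.62 in ptc5. ATP14, subunit h of the peripheral stalk, had the highest, −0.27. It was at −0.155 and −0.23 in ptc1, −0.083 and −0.25 in ptc2, −0.19 and −0.42 in ptc3, −0.23 and −0.11 in ptc4, and −0.54 and −0.32 in ptc5. Both genes were below wt on all 10 arrays, ptc1 included, and the ptc1 arrays of ATP14 overlapped the others while those of ATP20 did not.

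ATP16, the delta subunit of the central stalk, was at 0.305 and −0.044 in ptc1, −0.11 and −0.68 in ptc2, −0.25 and −0.43 in ptc3, −0.27 and −0.58 in ptc4, and −0.155 and −0.665 in ptc5. ATP15, the epsilon subunit of the same stalk, was below 0 on both arrays of ptc1, ptc2 and ptc3, but in ptc4 and ptc5 it was at 0.072 and 0.037 on array 1 and −0.69 and −0.55 on array 2. The other stalk and membrane subunits ATP4, ATP5, ATP7, ATP17 and TIM11 had means of between −0.040 and 0.099 in ptc1 and between −0.59 and −0.205 in the other mutants. The catalytic head genes ATP1 and ATP2, measured on 8 and 6 arrays, were below 0 on each of their 6 and 4 arrays outside ptc1.

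Of the regulators of the ATP synthase, STF2 (YGR008C), which helps stabilise the inhibited enzyme and is also known as a stress-tolerance hydrophilin, had the lowest mean of the members measured on both arrays in each of ptc2 to ptc5. It was at 0.058 and 0.11 in ptc1, −0.80 and −0.96 in ptc2, −0.94 and −0.78 in ptc3, −0.87 and −0.97 in ptc4, and −0.76 and −0.87 in ptc5. The 8 arrays outside ptc1 all lay far from both ptc1 arrays, and the mean over ptc2 to ptc5 was 1.82-fold below wt. INH1, the inhibitor of ATP hydrolysis, had 4 values, each from 1 array: −0.99 and −0.74 on array 1 of ptc2 and ptc3, −0.61 on array 1 of ptc4, and −0.94 on array 2 of ptc5. All were below wt, and ptc1 had none.

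The NADH dehydrogenases had a median of 0.41 in ptc1, and of −0.29, 0.071, −0.38 and −0.54 in ptc2 to ptc5, over only 2 or 3 genes. The ptc3 median was −0.092 on array 2 alone, and the ptc2 median −0.16 with the values as deposited. Over the genes measured on both arrays the ptc4 median was −0.38 on array 1 and −0.37 on array 2. With NDE2, measured in ptc4 on array 1 only, the array 1 median was −0.21. NDI1 (YML120C), which faces the matrix, was at 0.38 and 0.42 in ptc1, −0.22 and −0.36 in ptc2, 0.23 and −0.31 in ptc3, −0.55 and −0.57 in ptc4, and −0.54 and −0.70 in ptc5. In ptc3 its 2 arrays had opposite signs, with a mean of −0.041 ± 0.38. NDE1, which faces the cytosol side and oxidises cytosolic NADH, was at 0.55 and 0.28 in ptc1, 0.14 and −0.021 in ptc2, 0.24 and 0.12 in ptc3, −0.21 and −0.18 in ptc4, and −0.11 and −0.13 in ptc5. Among the members measured on both arrays, NDE1 had the highest mean in ptc1, ptc2 and ptc3. NDE2, its paralogue, was at −0.69 and −0.76 in ptc2, 0.38 on array 1 of ptc3, −0.14 on array 1 of ptc4 and −0.55 and −0.53 in ptc5, with no value in ptc1.

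**Figure D2:**
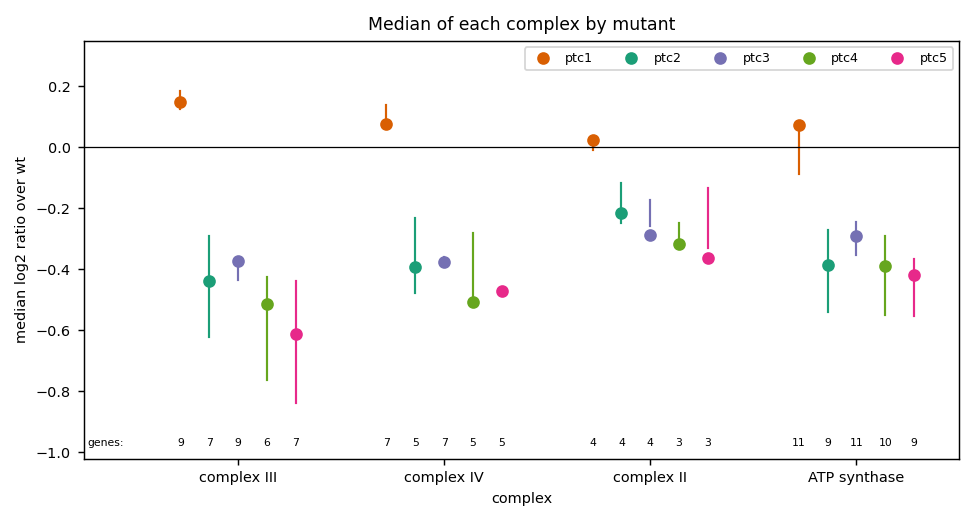
Median log2 ratio over wt of the 4 multi-subunit complexes in each mutant. Points are medians of the means of 2 arrays, bars span the medians of the single arrays over the same genes, and the number of genes measured stands at the bottom. In each complex the ptc1 median lies above those of the other mutants, and complex III in ptc5 is lowest at −0.61.

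The second comparison asked whether a mutant differed from the average of the remaining 4, which removes the wt RNA. In ptc1 QCR6, QCR7, QCR8, QCR9 and CYT1, 5 of the 6 tested, were higher than in the other mutants, as were COX13, SDH4, ATP16 and STF2. In this limma test on the 5 per-mutant means, 9 of 26 members rose in ptc1 at an adjusted p of at most 0.05, against 2.77% of the 3606 frames tested, and none fell. Here a gene that rose is one that was higher in ptc1 than in that average, and either side can give rise to the difference. For the 9 called genes the ptc1 mean relative to wt lay between 0.0405 and 0.24. The mean of the other 4 mutants lay between −0.87 and −0.39, farther from wt. All 26 members had a positive difference, with a median of 0.49, against −0.029 and 45.8% above 0 among all frames; with the values as deposited 24 of the 26 were positive.

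STF2 rose by 0.95 ± 0.10 (SE, limma adjusted p = 0.0050), a 1.94-fold difference. QCR9 rose by 0.72 ± 0.14 (limma adjusted p = 0.0335), SDH4 by 0.72 ± 0.11 (adjusted p = 0.018) and QCR8 by 0.66 ± 0.13 (adjusted p = 0.033). The other called genes, CYT1, COX13, QCR6, ATP16 and QCR7, rose by between 0.51 and 0.65 with adjusted p-values of up to 0.041. NDI1 had a large difference, 0.78, but a wide spread (SE 0.21), and its limma adjusted p was 0.074. SDH1, SDH3 and ATP14 differed least, by 0.052, 0.055 and 0.076, with 95% intervals of −0.21 to 0.32, −0.23 to 0.34 and −0.22 to 0.38.

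By complex, 5 of 6 tested genes were called in complex III with a median difference of 0.63, 1 of 5 in complex IV with 0.48, 1 of 3 in complex II with 0.055, 1 of 9 in the ATP synthase with 0.42 and 0 of 2 among NADH dehydrogenases with 0.61. These counts were not tested against each other. At an unadjusted p under 0.05, both NADH dehydrogenase genes and 19 of 26 members in all were higher in ptc1. At that threshold 23% of all frames passed in either direction. Counting arrays rather than means, 17 of 26 members had both ptc1 arrays above all 8 arrays of the other mutants, against 8.35% of all frames.

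The count of 9 depended on the samples and the scaling. It was 4 with the values as deposited (background 1.72%), 3 without array 2 of ptc2, 1 without ptc4 and 2 without ptc5. From either array number alone it was 1. Calls among all frames, in either direction, fell as well. They went from 171 of 3606 to 120 without array 2 of ptc2, 20 without ptc4 and 66 without ptc5. From array 1 alone 29 of 3915 frames were called, and from array 2 alone 17 of 3791. With the 10 arrays fitted singly and their number as a replicate block, the members' count was 19 (background 7.27%). That fit leaves the spread between the 2 arrays of a mutant, taken as technical, as the error.

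**Figure D3:**
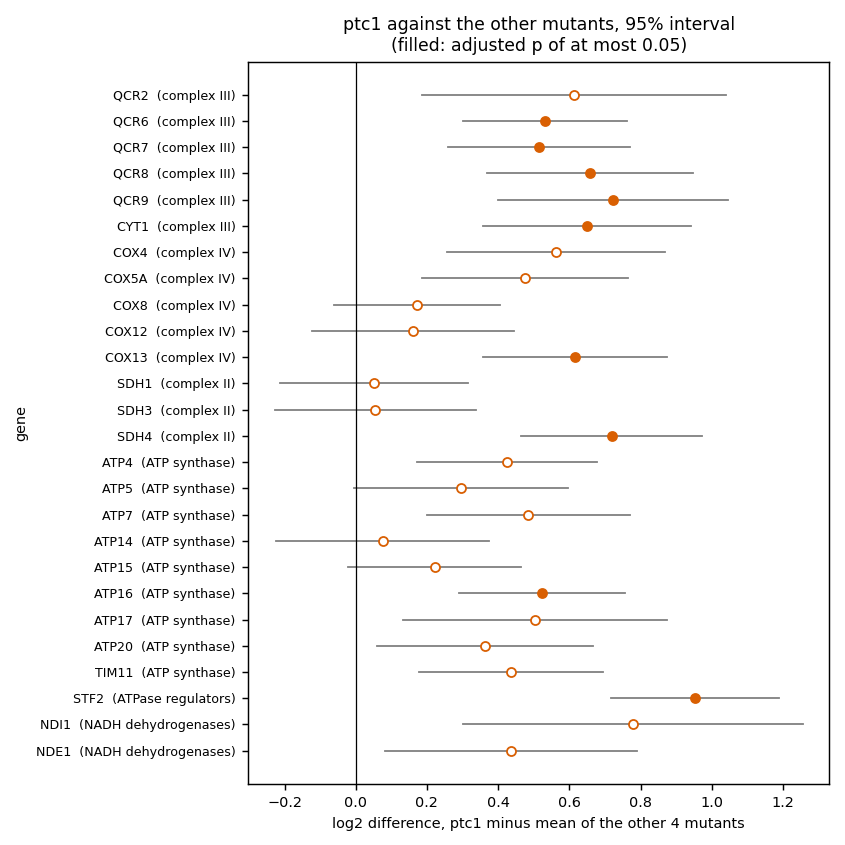
Log2 difference between ptc1 and the mean of the other 4 mutants for the 26 members measured on all arrays, with 95% intervals from limma. Filled points have an adjusted p of at most 0.05. All 26 differences are above 0 with centred arrays, 24 as deposited, from 0.052 for SDH1 to 0.95 for STF2.

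None of the members was called for ptc2, ptc3, ptc4 or ptc5 by the same limma test, nor did any have an unadjusted p under 0.05. The background was 0% of frames for ptc2, 0.0277% for ptc3, 0% for ptc4 and 0.0277% for ptc5. In these fits ptc1 is among the other mutants and widens the spread, with a median SE of the members between 0.22 and 0.23, against 0.12 for ptc1.

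The third comparison set the mean of the 5 mutants against wt. No member passed limma, with 0.222% of all frames called lower. At an unadjusted p under 0.05, 22 of 26 members were lower, while 26.8% of all frames passed in either direction. COX8 and ATP20 came closest, at −0.32 and −0.45, each with a limma adjusted p of 0.053. Without ptc1, 24 of 26 members were lower than wt at an adjusted p of at most 0.05, against 9.21% of all frames. The wt RNA counts as 1 sample whose own spread is left out of this test, and leaving out ptc1 follows a pattern already known in these data.

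In that mean of ptc2 to ptc5, STF2 was at −0.87 ± 0.046 (SE, limma adjusted p = 6.3e-05), QCR8 at −0.57 ± 0.056, QCR9 at −0.54 ± 0.063, COX13 at −0.52 ± 0.050 and ATP20 at −0.52 ± 0.059. All 6 tested complex III genes, all 5 of complex IV and all 9 of the ATP synthase fell, and so did 2 of 3 of complex II. The 2 members that did not pass were SDH3 at −0.065, with a 95% interval of −0.19 to 0.062, and NDE1 at −0.019, with one of −0.18 to 0.14.

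The 2 dye orientations gave different values for some members. Of the 26 genes on all arrays, 10 were lower on array 2 than on array 1 in all 5 mutants, against 20.4% of all frames, and 2, QCR6 and SDH1, were lower on array 1 in all 5, against 12.8%. COX13, SDH4 and QCR7 averaged −0.25, −0.20 and −0.19 over ptc2 to ptc5 on array 1, and −0.795, −0.75 and −0.76 on array 2. QCR6 and COX5A went the other way, at −0.60 and −0.53 on array 1 and −0.18 and −0.27 on array 2. For STF2 the orientations gave −0.84 and −0.895. The mean of a swapped pair holds both orientations equally, so an effect of dye alone cancels in it, but single-array values of INH1, CYC1, COX7 and the genes with missing spots carry it in full.

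**Figure D4:**
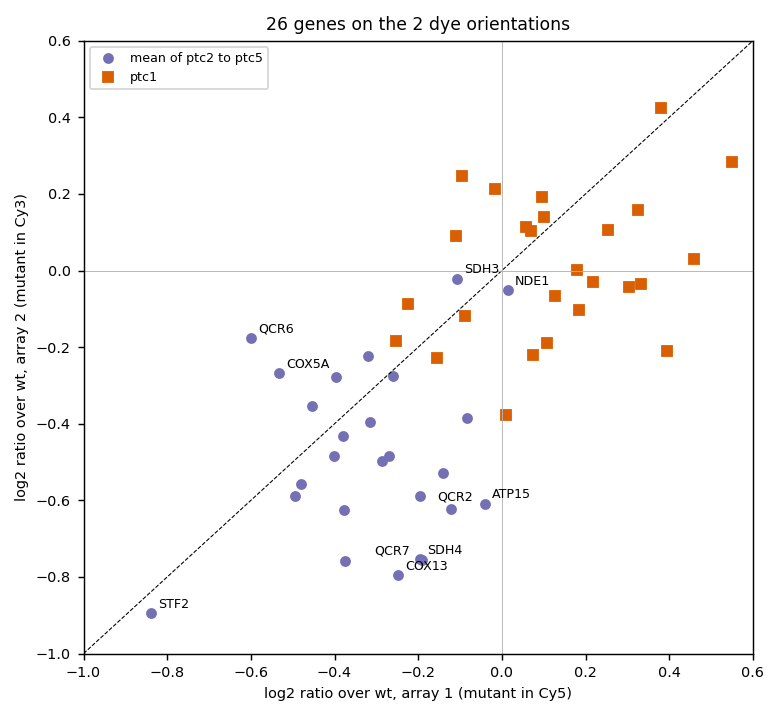
Log2 ratio over wt on array 2 (mutant in Cy3) against array 1 (mutant in Cy5) for the 26 members measured on all arrays, as means over ptc2 to ptc5 and for ptc1, with the line of equality dashed. STF2 lies near the line at −0.84 and −0.895, while COX13, SDH4 and QCR7 lie below it and QCR6 and COX5A above it.

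Other genes of respiration were then set beside the members. Of the tricarboxylic acid (TCA) cycle genes, which feed electrons into the chain, 4 of 9 tested fell in the mean of ptc2 to ptc5, led by MDH1, the mitochondrial malate dehydrogenase, at −0.41 (limma adjusted p = 0.0011). The list's medians were −0.10, −0.19, −0.26 and −0.080 in ptc2 to ptc5 and −0.00275 in ptc1, closer to 0 than the members' medians. Of the assembly factors of complexes III and IV, 4 of 16 fell, COX20, COX16, PET191 and CBP6, and of those of the ATP synthase 1 of 8, FMC1. The share of all frames called lower in that mean was 9.21%, so the count for the ATP synthase factors was near the background.

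Among genes of mitochondrial transport PIC2, a carrier of phosphate and copper, was at −0.61 (limma adjusted p = 0.0011) and POR1, the outer membrane porin, at −0.29. Of the 9 tested, 1 gene, YHM2, rose, by 0.20. In the mean of ptc2 to ptc5, 9.21% of all frames were called lower and 470 of 3606 higher. The 1 rise was thus near the background. None of 7 heme synthesis genes and none of 7 Hap regulators and hypoxic repressors passed limma in that mean, with 1 and 0 at an unadjusted p under 0.05. At that threshold 37.5% of all frames passed in either direction. HAP4, the limiting activator subunit in glucose medium, was measured on 7 arrays, with means of −0.34 in ptc1, 0.18 in ptc2 and 0.053 in ptc3. Mitochondrially encoded subunits were not analysed here.

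In ptc1 against the other mutants, limma called 0 of 9 TCA cycle genes, 0 of 16 and 0 of 8 assembly factors, 0 of 7 Hap regulators and 0 of 7 heme genes. At an unadjusted p under 0.05 these lists had 4, 3, 0, 1 and 1 genes in either direction, against 23% of all frames. Only the TCA cycle count lay above that share. The 4 TCA cycle genes and the Hap regulator were higher in ptc1, and the heme gene was lower. Of the 3 assembly factors 2 were higher and 1 was lower. Of 9 transport genes, MIR1, the mitochondrial phosphate carrier, rose by 0.57 and OAC1 fell by 0.72. Among all 3606 frames, limma called 100 higher and 71 lower.

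General stress genes differed between the same strains. Limma called 12 of 21 higher in ptc1 than in the others, against 2.77% of all frames, and 15 lower in the mean of ptc2 to ptc5, against 9.21%. Their medians were 0.22 in ptc1 and −0.46, −0.49, −0.46 and −0.46 in ptc2 to ptc5. HSP12, the membrane-associated small heat shock gene, was at 1.52 in ptc1 and between −2.63 and −1.79 in the others. Genes repressed by glucose or induced after the diauxic shift had medians of −0.071 in ptc1 and −0.082, 0.085, −0.069 and −0.069 in ptc2 to ptc5. Of 17 tested, HXK1 and GLK1, which encode sugar kinases, fell in the mean of ptc2 to ptc5, against 9.21% of all frames. MDH2 and ATO3 rose, where 470 of all 3606 frames did, so both counts were near the background. HXK1 and GLK1 were also the 2 of 17 called higher in ptc1 than in the other mutants, by 0.66 and 0.88 (limma adjusted p = 0.040 and 0.022). The part of the stress genes' shift in the members' values was not tested.

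**Figure D5:**
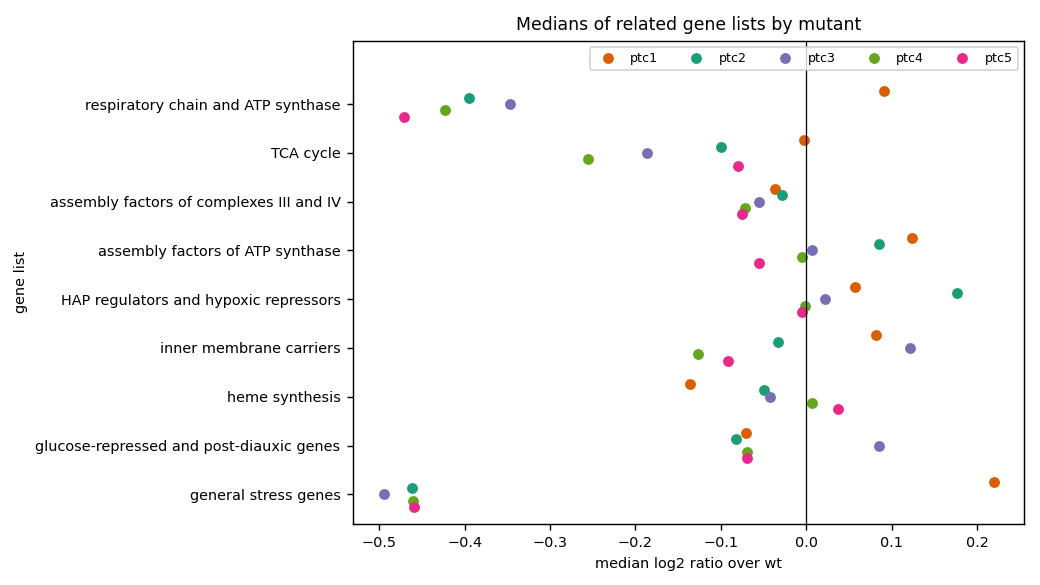
Median log2 ratio over wt of the respiratory chain and ATP synthase members and of 8 related gene lists in each mutant, over the genes measured on both arrays. The members and the general stress genes lie to the left of the other lists in ptc2 to ptc5, and the ptc1 medians of these 2 lists are above 0. So are the ptc1 medians of the ATP synthase assembly factors (0.12), the inner membrane carriers (0.082) and the Hap regulators (0.057).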

How the data were processed

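Log ratios of mutant over wt RNA were deposited for 10 two-colour arrays. Per the labels' protocols, RNA came from 30 ml of culture, 8 µg of total RNA went into each cDNA synthesis, and the authors left out spots under 120 µm across or under 150 units in Cy3 and Cy5. How background and dyes were corrected, with which program, and the base of the logarithm are not stated there; the deposited values were taken as log2. The 2 arrays of each mutant correlated across frames (r between 0.22 and 0.48), so the sign had been turned. Symbols came from RefSeq's gene table (assembly R64), which matched 5639 identifiers.

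Arrays were centred on their medians and the 2 arrays of a mutant averaged. For 3606 frames, those with a value on all arrays, the 5 means went into limma 3.58.1 (R 4.3.3). Each mutant was set against the other 4 (3 residual degrees of freedom) and the mean against 0 (4), with Benjamini-Hochberg adjustment over all frames. The fits were also run on simulated data whose 5 mutants were drawn independently. That simulation held no error shared through the wt RNA, so it does not cover that part of the design. The p-values measure the spread between these extracts, a single extract of each strain, which may be technical or a difference between strains. For each mutant against the other 4, that spread comes from the other 4 alone. How repeatable the single extract of that mutant is was not measured. Array-number deviations correlated in all 10 pairs of mutants (r between 0.17 and 0.67). Array number is also the dye orientation, so a pairing of replicates cannot be told apart from an effect of dye. Members, lists, tests and naming rule were chosen with earlier results of these data known. All members are accounted for; array values are given for up to 8 called genes, isoform pairs, regulators and each complex's lowest and highest gene, and other lists are given by counts and leading genes. The alternatives were centring, missing-spot rules, size rules, moderation, arrays as samples and leaving out arrays or mutants.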

Additional observations from a re-analysis of the deposited data

Results flagged for a closer look

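The following genes differed between mutants in the limma test of ptc1 against the mean of the other 4: STF2 by 0.95, SDH4 and QCR9 by 0.72, QCR8 by 0.66, CYT1 by 0.65, COX13 by 0.62, QCR6 by 0.53, ATP16 by 0.52 and QCR7 by 0.51. STF2 was called in 13 of 13 alternatives, SDH4 in 8 and QCR7 in 3.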

How the results depend on the processing

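The number of members called in ptc1 against the other mutants, 9 of 26, was 4 with the values as deposited, 4 of 31 with at least 1 array per mutant, 5 with arrays as samples and 19 with the replicate block added; it was 1 without either array number, between 1 and 12 when a mutant was left out, and 3 without array 2 of ptc2, an alternative chosen after seeing the data. Robust moderation kept it at 9 and trended moderation gave 7. Calls among all frames ran from 17 of 3791 without array number 1 to 516 of 3606 with the replicate block. For ptc2 to ptc5 the members' count was 0 in every alternative run, the replicate block included. For the mean of the 5 mutants against wt it was 0 in the main fit, 2 with robust moderation, 21 with arrays as samples and 24 with the replicate block. It was 17 and 6 without array number 1 and 2, and between 0 and 24 when a mutant was left out. Among all 3606 frames, calls in either direction were 9 in the main fit, 23 with robust moderation, 543 with arrays as samples and 1154 with the replicate block. Without array number 1 and 2 they were 540 of 3791 and 316 of 3915. When a mutant was left out they ran from 0 to 802. Under the smaller size rule of 0.3 the members past it numbered 3 of 35, 20 of 30, 22 of 35, 22 of 27 and 24 of 29 in ptc1 to ptc5. Under the larger rule of 1 there were none in any mutant. Under the rule of 0.5 with the values as deposited the ptc2 count was 2 and not 6. Single arrays measured between 27 and 38 members. On them the counts ran from 0 to 1 in ptc1, 6 to 14 in ptc2 and 6 to 8 in ptc3. In ptc4 they ran from 7 to 16 and in ptc5 from 10 to 19. No share of all frames stands beside these size-rule counts, so they carry no background. Over all members measured on a single array, the median was between 0.029 and 0.10 in ptc1, −0.405 and −0.28 in ptc2, and −0.36 and −0.31 in ptc3. It was between −0.57 and −0.33 in ptc4, and −0.49 and −0.43 in ptc5. These sets of genes differ between arrays. Over the members measured on both, arrays 1 and 2 gave −0.26 and −0.45 in ptc2, and −0.315 and −0.36 in ptc3. They gave −0.30 and −0.57 in ptc4, −0.41 and −0.55 in ptc5, and 0.10 and 0.029 in ptc1. With the values as deposited the members' median was −0.27 in ptc2. Of 166 values of the complex medians under alternatives, 30 moved by more than the SD of the medians of the 2 arrays. That SD is wide where the arrays disagree, so the count is no measure of stability. For cytochrome c in ptc2, −0.92 and −0.29 on single arrays did not count as moved from −0.60 (SD 0.44). Of 117 values of the 9 called genes under alternatives 60 passed the threshold and 57 did not, and none changed sign. The cause of these changes was not tested. No signal intensities were used here, so dim spots could not be told from bright ones.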
